A study of Mus musculus with 1931 samples.

Results

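The 10 genes described here make the core of Nodal signalling outside the nucleus, and all 10 were found by symbol among the 20999 genes of the expression table. They are the ligands *Nodal* and *Gdf3*, the convertases *Furin* and *Pcsk6*, the coreceptor *Tdgf1* (Cripto), the receptors *Acvr1b* and *Acvr2b*, and the antagonists *Lefty1*, *Lefty2* and *Cer1*. They were chosen by role, and the question was which compartment of an embryo-like structure holds RNA for ligand, convertase, coreceptor and inhibitor.

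Nodal is a secreted ligand of the TGF-beta family that is made as a precursor and cut by proprotein convertases. It binds type I and type II activin receptors together with an EGF-CFC coreceptor, and the receptors phosphorylate Smad2 and Smad3, which act on DNA with Smad4 and Foxh1. In the mouse embryo the pathway patterns epiblast and visceral endoderm, *Nodal* enhances its own transcription, and its targets *Lefty1* and *Lefty2* encode secreted inhibitors. *Furin* and *Pcsk6* are known from the extraembryonic ectoderm, and *Cer1* and *Lefty1* from the anterior visceral endoderm.

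The cells came from RtL-embryoids (rosette-to-lumen stage), grown from 3 mouse ESC lines in agarose microwells. Kermit ESCs carry an Oct3/4 promoter-driven GFP and no inducible factor, 5-Factor ESCs carry doxycycline-inducible *Cdx2*, *Tfap2c*, *Eomes*, *Gata3* and *Ets2*, and iGATA6 ESCs carry an inducible *Gata6* and mCherry. The drug was present at 2 µg/ml over 3 days and absent in the last 24 h, and 1 pool of hand-picked structures was sorted for GFP, mCherry or the surface protein CD40 onto plates 3, 4 and 5. The 2D cultures were ESC in 2i/LIF without doxycycline (plate 7), iTSC reprogrammed from 5-Factor ESCs with the drug (plate 8) and iXEN cells reprogrammed from iGATA6 ESCs with the drug (plate 9), 1 plate each. The embryoids received the drug in reconstructed embryo medium, the iTSC in TSC medium with FGF4 and heparin, and the iXEN cells in XEN cell medium. Each condition is 1 sample without biological replicate, and the 3 plates of the embryoids are technical splits of 1 pool. No test between conditions was therefore possible. Differences are given with their values on the 3 plates, and shares of cells carry exact 95% binomial intervals that cover counting error only.

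Of 1931 wells, 1406 held a cell with at least 2500 genes above 0 and were kept, 982 from 3D and 424 from 2D. The labels name wells and not compartments. Well columns 1 to 8 are called Epi-like, 9 to 16 VE-like and 17 to 24 ExE-like, standing for epiblast, visceral endoderm and extraembryonic ectoderm. All 7 Epi markers had their highest 3D mean in columns 1 to 8, all 7 VE markers in columns 9 to 16 and all 8 ExE markers in columns 17 to 24. Of the ExE markers, *Cdx2*, *Eomes*, *Tfap2c* and *Gata3* are also inducible transgenes of the 5-Factor line, so they are no independent check of these columns. The others, *Elf5*, *Hand1*, *Plet1* and *Krt7*, are not transgenes. The ExE list used below for single cells holds both kinds. Of 5 parietal endoderm markers 4 were also highest in the VE-like cells, where the list summed to a mean of 108.3 TP10k per cell against 22.9 for the 7 VE markers, so these columns held parietal as well as visceral endoderm markers. These are sums of different genes and do not measure how much of either cell type was present. Single parietal markers were found in 0.952% to 99.7% of VE-like cells, and single VE markers in 86.7% to 98.1%. The 5 fibroblast markers summed to at most 0.0466 TP10k in any compartment. TP10k is the unit of level used throughout. It is the TPM of a cell rescaled to a sum of 10000, a value per transcript length that can be compared between genes.

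The strongest marker list was not that of the columns in 4 Epi-like cells (1.27%), 4 VE-like cells (1.27%) and 81 ExE-like cells (22.9%). Of these 81 ExE-like cells, 59 led in the Epi list and 22 in the VE list. The median number of genes per cell ranged from 4823 (Epi-like) to 5396 (ExE-like) in 3D and from 8537 (iTSC) to 9093.5 (ESC) in 2D. A weakly expressed gene is found in more cells where more genes are found, so shares of cells in 3D and 2D are not on an equal footing, and no cell could be thinned because TPM keep no read number. A value of 0 can also be a failed estimate.

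*Nodal* lies on chromosome 10 (GRCm38, positions 61417972 to 61425338, plus strand) and *Tdgf1* on chromosome 9 (110939603 to 110946158, minus strand). The 250 bases before their starts are shown because ligand and coreceptor shared their place of highest RNA in 3D and in 2D. The sequences are RefSeq's for GRCm38.p6, written 5′ to 3′ on the strand of the gene, at chr10:61417722-61417971 (plus) and chr9:110946159-110946408 (minus), with matches to the searched motifs in capitals.
Nodal: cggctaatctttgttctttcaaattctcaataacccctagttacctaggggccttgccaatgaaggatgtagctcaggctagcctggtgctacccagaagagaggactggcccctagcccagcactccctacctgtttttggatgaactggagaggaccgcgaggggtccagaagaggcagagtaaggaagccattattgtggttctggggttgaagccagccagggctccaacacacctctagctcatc
Tdgf1: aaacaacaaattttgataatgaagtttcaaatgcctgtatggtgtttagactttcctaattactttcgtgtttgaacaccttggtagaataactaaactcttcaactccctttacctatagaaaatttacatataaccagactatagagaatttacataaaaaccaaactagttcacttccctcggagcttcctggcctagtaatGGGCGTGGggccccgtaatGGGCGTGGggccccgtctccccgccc
A *Foxh1* motif (AATNCACA), a palindromic Smad motif (GTCTAGAC), an octamer (ATGCAAAT) and a Klf motif (GGGCGTGG) were searched on both strands. These are held by 3.18%, 0.167%, 1.60% and 4.79% of the 32851 windows of this length in the table. The *Tdgf1* window held the Klf letters at 2 places, beginning 45 and 26 bases before the start, and the *Nodal* window held none of the 4 motifs. Windows were given for 7 of the 10 genes. The GC content was 53.2% in the *Nodal* window and 42% in the *Tdgf1* window, against 78.8% for *Acvr1b* and a median of 52.4% over all windows.

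By compartment, 5 of the 10 genes had a mean in Epi-like cells at least 2-fold above each other compartment, overall and on each plate. These were *Nodal*, *Gdf3*, *Tdgf1*, *Lefty1* and *Lefty2*, that is both ligands, the coreceptor and 2 of the 3 antagonists. Of the 11215 genes that passed the filter (at least 10% of cells of 1 compartment with a value), 3.98% were called for Epi-like cells, 3.94% for VE-like and 3.78% for ExE-like cells. None of the 10 genes was called for the VE-like or ExE-like cells. The remaining 5 genes comprised both convertases, both receptors and *Cer1*, and *Cer1* alone did not pass the filter. The median log2 ratio of Epi-like over VE-like means was 2.36 over the 9 genes that passed, against 0.08 over all genes tested, and that of Epi-like over ExE-like means 3.20 against -0.10. *Gdf3* and *Tdgf1* passed the filter through Epi-like cells alone, and the genes were chosen with earlier results of these data known. The medians are thus a description and no support for a difference.

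**Figure D1:**
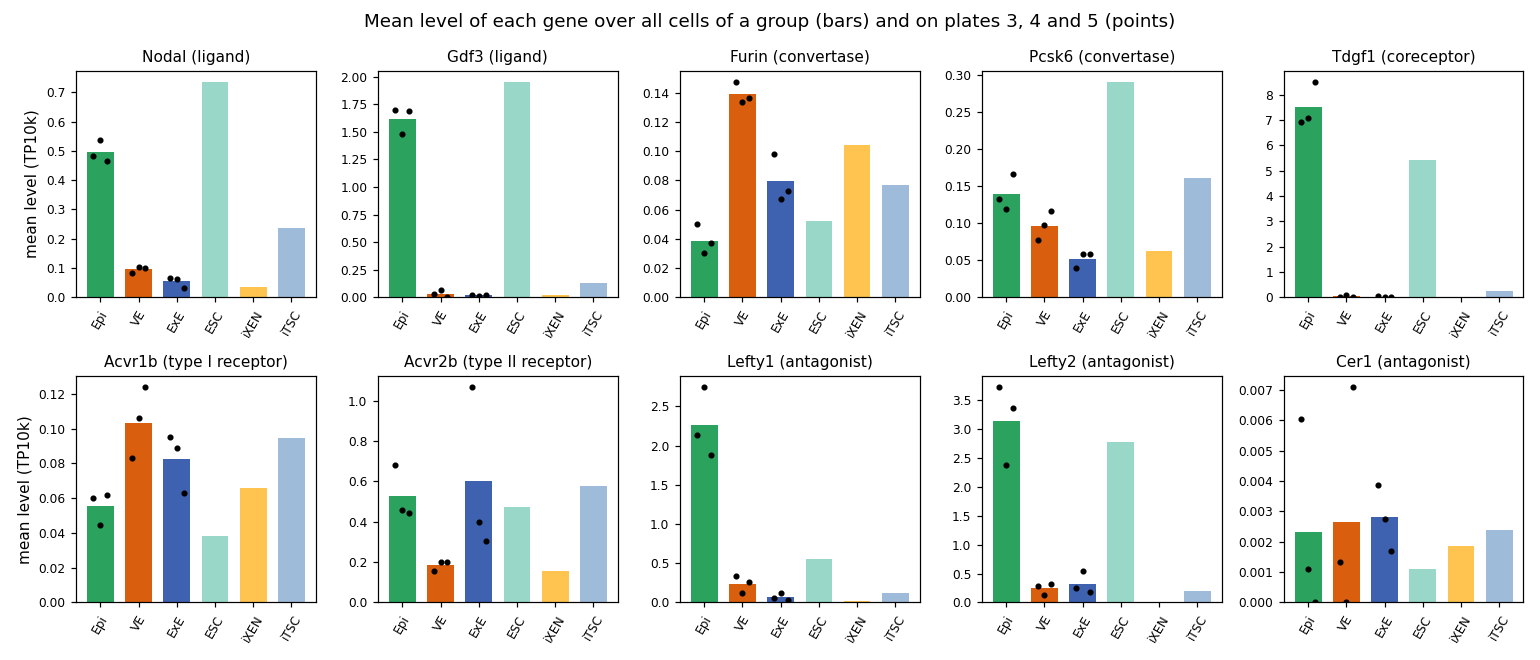
Mean level in TP10k (vertical axis, from 0, with its own scale in each panel) of each of the 10 genes over all kept cells of the 3 compartments (Epi, VE, ExE) and the 3 cultures (ESC, iXEN, iTSC), as bars, with points for plates 3, 4 and 5. Nodal, Gdf3, Tdgf1, Lefty1 and Lefty2 stand highest in Epi on every plate among the compartments, Furin stands highest in VE, and no bar of Cer1 exceeds 0.00281.

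Among the ligands, *Nodal* RNA was highest in the Epi-like cells of the 3 compartments. The mean was 0.495 TP10k in Epi-like cells (0.483, 0.536 and 0.464 on plates 3, 4 and 5), 0.0960 in VE-like cells (0.0835, 0.104 and 0.101) and 0.0538 in ExE-like cells (0.0647, 0.0633 and 0.0323). The plate values of the 3 compartments did not overlap. Epi-like cells were 5.15-fold above VE-like and 9.20-fold above ExE-like cells, with plate ratios of 4.59 to 5.78 and 7.46 to 14.4. *Nodal* was found in 56.4% of Epi-like cells (interval 50.7 to 61.9), in 19.05% of VE-like cells (14.9 to 23.8) and in 9.92% of ExE-like cells (7.004 to 13.5). Over the cells in which it was found, its mean was 0.877 TP10k in Epi-like cells, 0.504 in VE-like cells and 0.542 in ExE-like cells. The compartments thus differed more in the share of cells with *Nodal* than in the level of those cells.

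*Gdf3* encodes a ligand related to Nodal that also signals through the coreceptor. Its mean was 1.62 TP10k in Epi-like cells (1.70, 1.48 and 1.69 on plates 3, 4 and 5), 0.0331 in VE-like cells (0.0251, 0.0671 and 0.00489) and 0.0173 in ExE-like cells (0.0234, 0.0117 and 0.0167). It was found in 87.9% of Epi-like cells, 4.44% of VE-like cells and 3.68% of ExE-like cells. In Epi-like cells *Gdf3* stood above *Nodal* on every plate, and 50.3% of these cells held both.

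**Figure D2:**
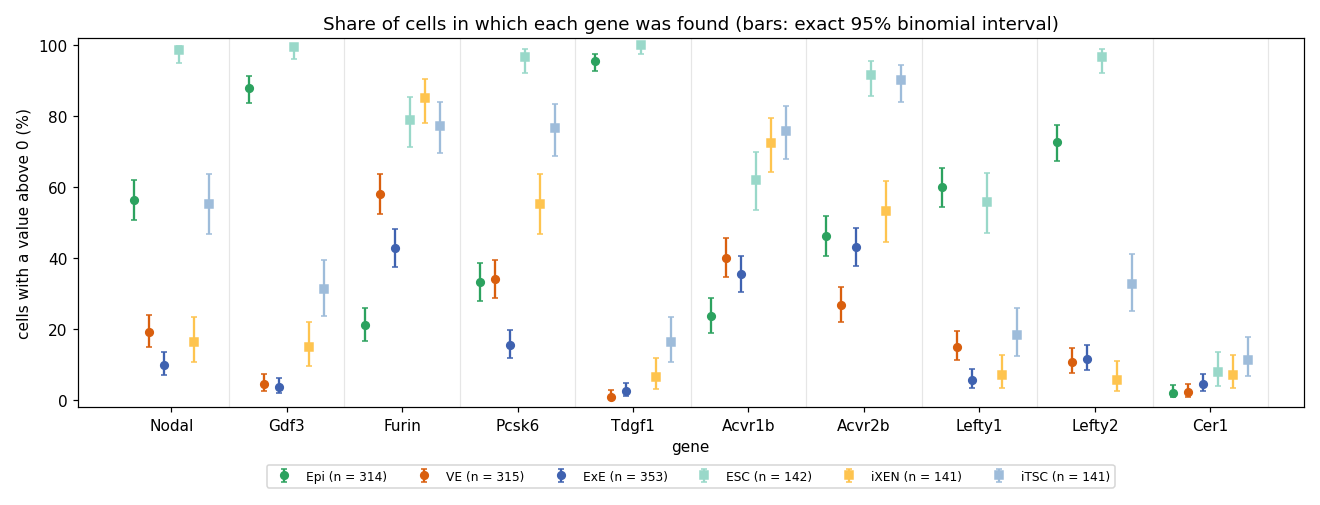
Percent of cells with a value above 0 (vertical axis) for each of the 10 genes (horizontal axis) in the 3 compartments (circles) and the 3 cultures (squares), with exact 95% binomial intervals. Tdgf1 is found in 95.5% of Epi cells and in every ESC but in few VE and ExE cells, whereas no group falls below 15.6% for Furin, Pcsk6, Acvr1b or Acvr2b.

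The convertases followed another order. *Furin*, which cuts many secreted precursors, was highest in VE-like cells, with a mean of 0.139 TP10k (0.148, 0.134 and 0.136 on plates 3, 4 and 5). ExE-like cells had 0.0796 TP10k (0.0982, 0.0669 and 0.0726) and Epi-like cells 0.0388 TP10k (0.0499, 0.0299 and 0.0371). VE-like cells were first, ExE-like cells next and Epi-like cells last on all 3 plates. The gap from VE-like to ExE-like cells was 1.75-fold (1.503 to 1.999 between plates) and stayed under 2-fold. *Furin* was found in 58.1% of VE-like cells (52.4 to 63.6), 42.8% of ExE-like cells (37.6 to 48.1) and 21.02% of Epi-like cells (16.6 to 25.9). Among the cultures iXEN had 0.104 TP10k, iTSC 0.0770 and ESC 0.0522, so that in 2D as in 3D the endoderm-like cells had most.

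*Pcsk6* encodes the convertase PACE4. Its mean was 0.139 TP10k in Epi-like cells (0.133, 0.119 and 0.166), 0.0966 in VE-like cells (0.0774, 0.0979 and 0.117) and 0.0520 in ExE-like cells (0.0388, 0.0590 and 0.0588). Epi-like cells were above VE-like cells on each plate, yet their lowest plate and the highest VE-like plate were nearly equal. ExE-like cells were lowest on each plate, and Epi-like cells had 2.68-fold more (2.01 to 3.42 between plates). *Pcsk6* was found in 33.1% of Epi-like cells, 33.97% of VE-like cells and 15.6% of ExE-like cells. Neither *Furin* nor *Pcsk6* was therefore highest in the ExE-like cells. *Pcsk7*, a further convertase gene, had 0.193 TP10k in ExE-like cells, 0.163 in VE-like cells and 0.0621 in Epi-like cells. For *Pcsk7* the ExE-like cells were highest on 2 of the 3 plates. At least 1 of *Furin* and *Pcsk6* was found in 45.9% of Epi-like cells (40.3 to 51.5), 70.8% of VE-like cells (65.4 to 75.8) and 49.3% of ExE-like cells (43.96 to 54.6). Of the Epi-like cells with *Nodal*, 95 (53.7%) held neither *Furin* nor *Pcsk6*, as did 20 of 60 VE-like cells with *Nodal* and 1.43% of such ESC, in which more genes were found per cell.

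*Tdgf1*, the EGF-CFC coreceptor, had the largest ratios between compartments among the 10 genes. Its mean was 7.51 TP10k in Epi-like cells (6.90, 7.09 and 8.52 on plates 3, 4 and 5), 0.0324 in VE-like cells and 0.0239 in ExE-like cells, and in Epi-like cells it lay above 99.3% of all genes by mean. It was found in 95.5% of Epi-like cells (92.6 to 97.5), in 3 VE-like cells (0.952%) and in 9 ExE-like cells (2.55%). On plates 3 and 5 it was listed at 0 in every VE-like cell. Of the 3 VE-like cells with *Tdgf1*, 2 led in the Epi marker list, and over the VE-like cells that led in the VE list the mean was 0.000765 TP10k. Of the 31-base words of *Tdgf1* transcripts, 12.6% also occur in transcripts of other genes, nearly all of them in *Tdgf1-ps1*, so some of its reads cannot be told from those of that pseudogene.

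*Cfc1*, which encodes the other EGF-CFC protein, was found elsewhere. It was 1 of 2 genes called for VE-like cells among 30 further genes of the pathway. Of these 30, 21 passed the filter, and of all genes tested 3.94% were called for VE-like cells. The mean of *Cfc1* was 0.111 TP10k in VE-like cells (0.132, 0.0775 and 0.124 on plates 3, 4 and 5), 0.0221 in Epi-like cells and 0.00853 in ExE-like cells. It was found in 12.1% of VE-like cells.

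The receptors were found in every compartment. The type I receptor gene *Acvr1b* had a mean of 0.104 TP10k in VE-like cells (0.0830, 0.106 and 0.124 on plates 3, 4 and 5), 0.0826 in ExE-like cells (0.0950, 0.0889 and 0.0630) and 0.0556 in Epi-like cells (0.0603, 0.0448 and 0.0619). Epi-like cells had the lowest value on each plate, while VE-like and ExE-like cells changed places between plates. The type II receptor gene *Acvr2b* had 0.599 TP10k in ExE-like cells (1.07, 0.396 and 0.306), 0.527 in Epi-like cells (0.683, 0.460 and 0.445) and 0.185 in VE-like cells (0.158, 0.202 and 0.199). VE-like cells were lowest on all 3 plates, and ExE-like cells were above Epi-like cells on plate 3 and below them on plates 4 and 5. The ExE-like value on plate 3 rested on 1 cell with 79.8 TP10k and 2526 genes. Without it the mean of *Acvr2b* in ExE-like cells was 0.374 TP10k overall and 0.417 on plate 3, below Epi-like cells in both. Epi-like cells had 2.84-fold more *Acvr2b* than VE-like cells (2.24 to 4.33).

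Both receptor genes together were found in 14.01% of Epi-like cells, 12.1% of VE-like cells and 16.4% of ExE-like cells. With *Tdgf1* required as well, the share was 14.01% in Epi-like cells (44 cells), 0.635% in VE-like cells and 0.283% in ExE-like cells. Every Epi-like cell with both receptors thus also held the coreceptor. In the cultures, coreceptor and both receptors were found together in 57.04% of ESC, 13.5% of iTSC and 2.13% of iXEN cells.

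*Lefty1* and *Lefty2* lie near each other on chromosome 1 (180935022 to 180938400 and 180893108 to 180899103, both on the plus strand). Their transcripts share 443 words of 31 bases, which is 25.7% of those of *Lefty1* and 17.2% of those of *Lefty2*, so part of the reads cannot be assigned between them and their single values are uncertain to that extent. *Lefty1* had a mean of 2.26 TP10k in Epi-like cells (2.14, 2.75 and 1.88 on plates 3, 4 and 5), 0.237 in VE-like cells (0.332, 0.116 and 0.262) and 0.0676 in ExE-like cells (0.0555, 0.120 and 0.0270). Epi-like cells stood 9.54-fold above VE-like cells (6.45 to 23.7) and 33.4-fold above ExE-like cells (22.97 to 69.5). *Lefty1* was found in 59.9% of Epi-like cells (54.2 to 65.3), 14.9% of VE-like cells (11.2 to 19.3) and 5.67% of ExE-like cells (3.49 to 8.61).

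*Lefty2* had a mean of 3.15 TP10k in Epi-like cells (3.74, 2.38 and 3.37), 0.244 in VE-like cells (0.288, 0.130 and 0.319) and 0.325 in ExE-like cells (0.251, 0.552 and 0.172). The Epi-like plates lay above all others, while the plate values of VE-like and ExE-like cells overlapped. *Lefty2* was found in 72.6% of Epi-like cells (67.3 to 77.5), 10.8% of VE-like cells and 11.6% of ExE-like cells. The levels of both Lefty genes added up to 5.41 TP10k in Epi-like cells, 10.9 times that of *Nodal* there, with plate ratios of 9.56 to 12.2. Both were found together in 48.7% of Epi-like cells, and at least 1 of them in 83.8%.

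The remaining antagonist gene, *Cer1*, encodes a secreted inhibitor of Nodal and is used as a marker of the anterior visceral endoderm. It was found in 6 Epi-like cells (1.91%), 7 VE-like cells (2.22%, interval 0.898 to 4.52) and 16 ExE-like cells (4.53%), and its mean was at most 0.00281 TP10k in any compartment. In the cultures it was found in 7.75% of ESC, 7.09% of iXEN cells and 11.3% of iTSC, with means of at most 0.00239 TP10k. Of the antagonist genes *Lefty1*, *Lefty2* and *Cer1*, the RNA in VE-like cells was thus nearly all from the Lefty genes. *Fst*, an inhibitor gene of the wider pathway list, had 0.268 TP10k in VE-like cells.

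The levels varied widely among cells of a compartment. In Epi-like cells the 10% of cells with the highest level held 51.03% of all *Lefty1* and 48.6% of all *Lefty2*, against 24.97% of *Tdgf1* and 26.2% of *Gdf3*. The median Epi-like cell had 0.585 TP10k of *Lefty1*, and the 90th percentile was 6.25. In VE-like cells the same part of the cells held 95.3% of all *Lefty1*, 99.8% of all *Lefty2* and 83.2% of all *Nodal*. *Tdgf1* and *Gdf3* were spread over most Epi-like cells, and the Lefty RNA lay mainly in part of them.

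**Figure D3:**
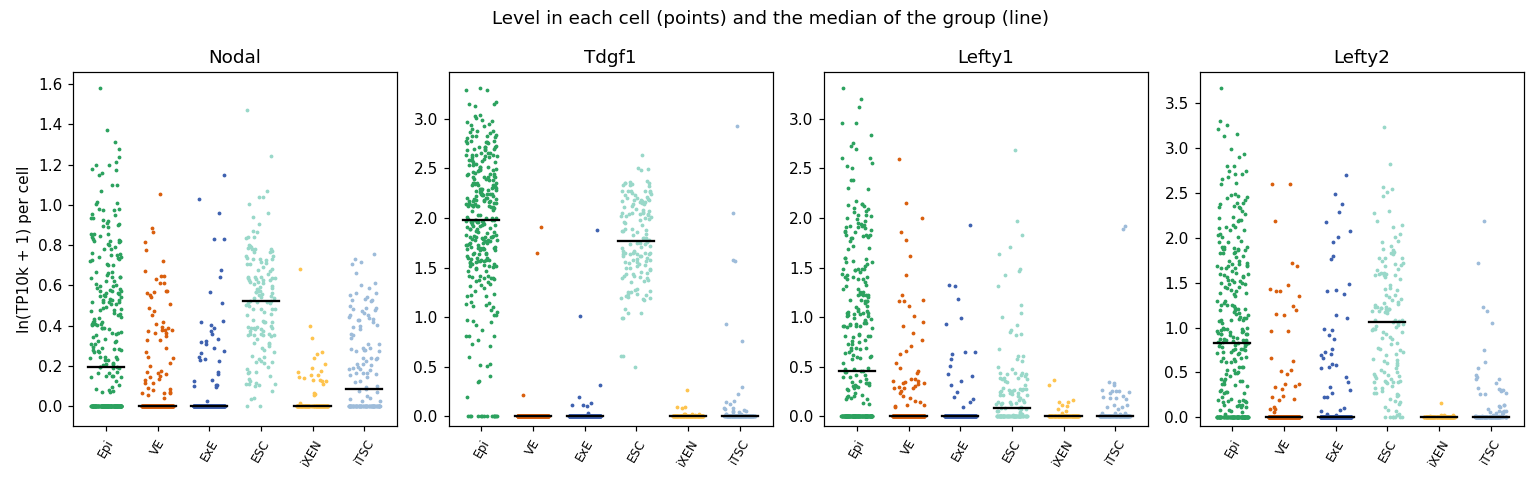
Level per cell as ln(TP10k + 1) (vertical axis, natural logarithm) of Nodal, Tdgf1, Lefty1 and Lefty2 in the 3 compartments and 3 cultures, with a point for each kept cell and a line at the median of the group. The Epi median is above 0 for all 4 genes, and in VE and ExE the medians lie at 0 with a minority of cells above.

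Within the VE-like compartment, the Lefty genes were found more often in cells with *Nodal*. Of the 60 VE-like cells with *Nodal*, 28 held *Lefty1* (46.7%, interval 33.7 to 60.004), against 19 of the cells without (7.45%, 4.55 to 11.4). The mean of *Lefty1* was 1.02 TP10k with *Nodal* and 0.0522 without, and it was higher with *Nodal* on plate 3 (1.47 against 0.0342), plate 4 (0.529 against 0.0150) and plate 5 (1.02 against 0.111). *Lefty2* was found in 38.3% of VE-like cells with *Nodal* (26.1 to 51.8) and in 4.31% of those without (2.17 to 7.59). The median number of genes was 5446 with *Nodal* and 5297 without, and the shares with *Lefty1* were 46.2% and 3.82% among cells below the compartment's median depth and 47.1% and 11.3% among the others. These are cells of 1 pool, so the shares describe it and carry no test.

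Of 9 further pathway genes set against *Nodal* in the same way, 5 were found in a larger share of VE-like cells with *Nodal* than without and 4 in a smaller one. Their intervals were apart for *Eomes* alone, which is known as a target of Nodal and was found in 27 of the 60 cells with *Nodal* and in 18.8% of those without. The share of all genes with intervals apart was not determined in any compartment. Whether being found together with *Nodal* is particular to *Eomes*, the Lefty genes or the pathway was thus not tested. *Foxa2*, another known target, was found in 30 of the 60 and in 58.04%, and *Smad7*, a feedback inhibitor, in 29 of the 60 and in 53.7%. *Pmepa1*, also a feedback inhibitor, was found in 50 of the 60 and in 69.4%, yet its mean was 0.408 TP10k with *Nodal* and 0.463 without. The others found in a larger share with *Nodal* were *Lhx1*, *Foxh1* and *Skil*, and those in a smaller one *Otx2* and *Cfc1*. *Otx2* was nearly absent from VE-like cells, in 0 of the 60 and in 0.392% of those without *Nodal*, so it shows no direction. *Furin* was found in 33 of the 60 and in 58.8%, and *Pcsk6* in 18 of the 60 and in 34.9%, with overlapping intervals.

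In Epi-like cells the contrast was smaller. *Lefty1* was found in 67.8% of cells with *Nodal* (60.4 to 74.6) and in 49.6% of those without (40.99 to 58.3), at a median of 5079 and 4507 genes per cell. Below the median depth the shares were 56.5% and 39.8%, and from the median up 75% and 67.3%. For *Lefty2* they were 75.1% and 69.3% over all Epi-like cells, and for *Tdgf1* 96.6% and 94.2%, with overlapping intervals. *Lefty2* was found in 81.4% of Epi-like cells with *Lefty1* and in 59.5% of those without. *Otx2*, a gene of primed epiblast, was found in 60.1% of Epi-like cells with *Lefty1* (52.7 to 67.2) and 43.7% of those without (34.8 to 52.8), again with more genes per cell in the former (5130.5 against 4364).

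**Figure D4:**
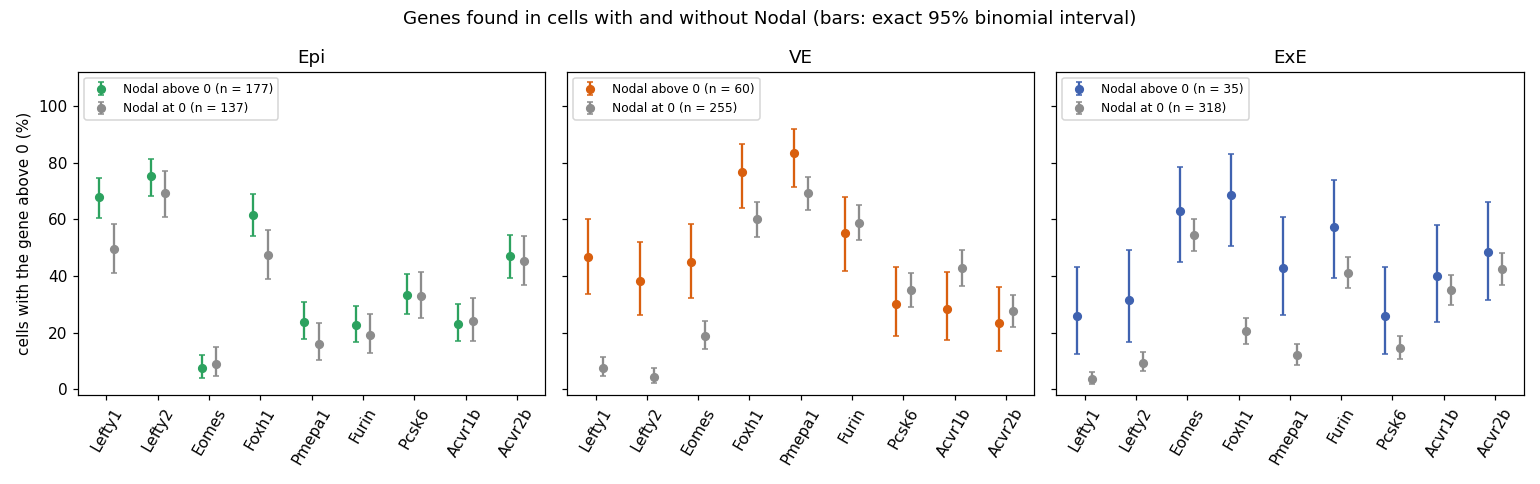
Percent of cells in which each of 9 genes was found (vertical axis), in cells with Nodal above 0 (coloured) and at 0 (grey), for Epi, VE and ExE, with exact 95% binomial intervals. In VE, Lefty1 reaches 46.7% with Nodal and 7.45% without, and the intervals of Furin, Pcsk6, Acvr1b and Acvr2b overlap in all 3 panels.

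Of the ExE-like cells with *Nodal*, many led in another marker list. There were 35 such cells, of which 18 led in the ExE list, 13 in the VE list and 4 in the Epi list. *Nodal* was found in 13 of the 22 ExE-like cells of the VE list (59.1%), with a mean of 0.424 TP10k, and in 6.62% of those of the ExE list, with a mean of 0.0315. *Lefty1* was found in 7 of the 22 cells and in 2.94% of the cells of the ExE list, and *Lefty2* in 7 of the 22 and in 6.62%. The 59 cells of the Epi list held *Lefty2* in 27.1% and *Tdgf1* in 5.08%. *Foxh1*, which encodes a DNA-binding partner of the Smads, was found in 68.6% of ExE-like cells with *Nodal* and in 20.4% of those without. Without the cells of another list the ratio of *Nodal* in Epi-like over ExE-like cells was 3.98 on the log2 scale, against 3.20 with them.

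Among the cultures, ESC had most RNA of the same 5 genes. *Nodal*, *Gdf3*, *Tdgf1*, *Lefty1* and *Lefty2* were at least 2-fold higher in ESC than in iXEN cells and in iTSC. Of 14124 genes, 7.74% were called for ESC, 8.48% for iXEN and 10.5% for iTSC, and none of the 10 genes was called for iXEN or iTSC. *Nodal* had 0.737 TP10k in ESC, 0.236 in iTSC and 0.0359 in iXEN cells. *Tdgf1* had 5.41 TP10k in ESC, 0.259 in iTSC and 0.00509 in iXEN cells.

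Each 3D compartment was set against the 2D culture of its lineage. Growth in 3D, co-culture, medium and plate changed together in each comparison and cannot be told apart. Compared with ESC, the Epi-like cells differed most in *Lefty1*. Its mean was 2.26 TP10k in Epi-like cells and 0.555 in ESC, a ratio of 4.07 (3.85, 4.96 and 3.39 on plates 3, 4 and 5). The shares of cells were 59.9% and 55.6% (47.1 to 63.96), although ESC had more genes per cell, and over the cells with *Lefty1* the mean was 3.77 against 0.997 TP10k. *Lefty2* stood at 3.15 and 2.78 TP10k, and the ratio of *Lefty1* to *Lefty2* was 0.717 in Epi-like cells (0.558 to 1.156 on plates) and 0.200 in ESC. *Lefty1* was the only 1 of the 10 genes called higher, where 5.9% of 13109 genes were, and none was called lower, where 5.13% were. *Nodal* was at 0.671 of its ESC level (0.630 to 0.728) and *Pcsk6* at 0.478 (0.408 to 0.570), the latter past 2-fold overall and on plates 3 and 4.

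Compared with iXEN, the VE-like cells had more *Nodal*, *Lefty1* and *Lefty2*. These 3 of the 10 genes were called higher, where 1.76% of 12248 genes were, and none was called lower, where 4.58% were. *Nodal* had 0.0960 against 0.0359 TP10k, a ratio of 2.68 (2.33, 2.91 and 2.82 on plates 3, 4 and 5). It was found in 19.05% of VE-like cells (14.9 to 23.8) and 16.3% of iXEN cells (10.6 to 23.5), with a mean over these cells of 0.504 and 0.220 TP10k. None of the 3 genes was found in 25% of the cells of either group, so that a filter at this share left no call, and with the mean of log2(TPM + 0.1) *Lefty2* alone was called. *Lefty1* had 0.237 against 0.0119 TP10k, a ratio of 19.8 (9.70 to 27.8). *Lefty2* was found in 8 iXEN cells (5.67%, 2.48 to 10.9) at a mean of 0.00232 TP10k, and in 34 VE-like cells at 0.244 TP10k, although iXEN cells had more genes per cell, and its log2 ratio was 6.71. *Tdgf1* had a higher mean in VE-like than in iXEN cells through plate 4 alone. *Furin* (1.34-fold), *Pcsk6* (1.56-fold), *Acvr1b* (1.57-fold) and *Acvr2b* (1.19-fold) stayed within 2-fold on every plate.

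Compared with iTSC, the ExE-like cells had less *Nodal*, *Gdf3*, *Pcsk6* and *Tdgf1*. These 4 of the 10 genes were called lower, where 8.77% of 13012 genes were, and none was called higher, where 6.42% were. *Nodal* had 0.0538 against 0.236 TP10k, that is 4.397-fold less (3.65 to 7.32 between plates), and was found in 9.92% against 55.3% of cells. *Pcsk6* had 0.0520 against 0.162 TP10k, and *Gdf3* 0.0173 against 0.127. *Tdgf1* had 0.0239 against 0.259 TP10k. Most of it on both sides lay among the cells that led in the Epi marker list, 11 iTSC and 59 ExE-like cells. Of these 59, only 3 held *Tdgf1*, and without the highest cell the ExE-like mean was 0.00824 TP10k. With the cells of another list left out on both sides, *Tdgf1* had 0.00234 TP10k in ExE-like cells and 0.0104 in iTSC, a log2 ratio of -2.15 against -3.44 over all cells. For *Nodal* the log2 ratio then was -2.81 against -2.14, and for *Gdf3* -2.74 against -2.87. *Lefty1*, which was not called over all cells, had -1.89 against -0.761. *Furin*, *Acvr1b* and *Acvr2b* were within 2-fold of iTSC on each plate.

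**Figure D5:**
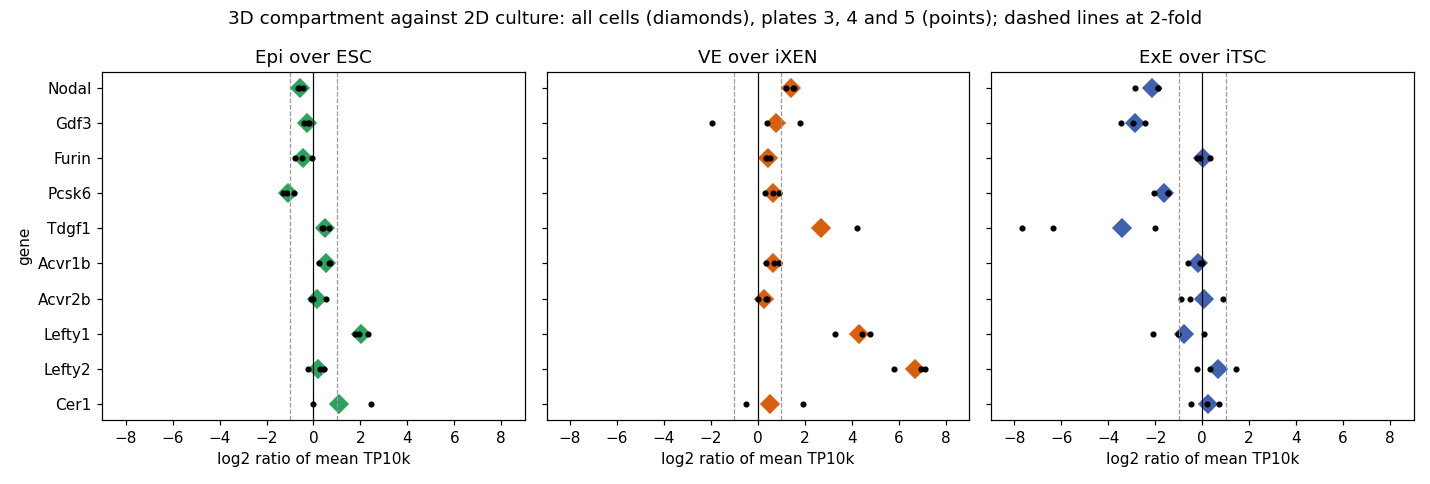
Log2 ratio of the mean TP10k (horizontal axis) of each gene in a 3D compartment over its 2D culture, for all cells (diamonds) and for plates 3, 4 and 5 (points, left out where the plate value is 0), with dashed lines at 2-fold. Lefty1 lies right of the line on every plate in Epi and VE, and Nodal lies right of it in VE (1.42) and left of it in ExE (-2.14).

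Among cells with 5000 to 9000 genes, a range that all groups share, the share with *Nodal* was 69.6% for Epi-like, 22.5% for VE-like and 12.3% for ExE-like cells. In the same range the mean of *Lefty1* was 2.83 TP10k in Epi-like cells and 0.639 in ESC, and that of *Nodal* 0.109 in VE-like and 0.0295 in iXEN cells. Even so the median in this range was 5667.5 genes in Epi-like cells and 8664.5 in ESC.

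Of the 31 further pathway genes on the list, 30 were in the table and *Gdf1* was not matched. Of the 30, 21 passed the filter in 3D and 4 were called. These were *Otx2* for Epi-like cells, *Cfc1* and *Pmepa1* for VE-like cells and *Eomes* for ExE-like cells. Of all genes tested, 3.98%, 3.94% and 3.78% were called for these compartments. With 1, 2 and 1 genes called among 21, the counts are too small to set the list apart from all genes. *Eomes* is also an inducible transgene of the 5-Factor line, and the values do not tell the transgene from the endogenous gene. Of the other ligand genes, *Inhba* had at most 0.00347 TP10k in any compartment, and *Inhbb* had 0.0270 in Epi-like cells. Of the transducers, *Smad2* was highest in VE-like cells, with 0.839 TP10k against 0.565 in ExE-like cells and 0.443 in Epi-like cells. *Foxh1* was highest there too, with 0.868 TP10k against 0.629 in Epi-like cells and 0.302 in ExE-like cells, and neither gene passed 2-fold over both other compartments.

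Between 3D and 2D, 25 of the 30 passed the filter for Epi-like cells and ESC, of which 2 were called higher and 3 lower, beside 5.9% and 5.13% of all genes tested. For VE-like and iXEN cells 22 passed, with 2 higher and 1 lower, beside 1.76% and 4.58%. For ExE-like cells and iTSC 23 passed, with 3 higher and 4 lower, beside 6.42% and 8.77%. *Pmepa1*, which sequesters Smads, had 0.452 TP10k in VE-like and 0.137 in iXEN cells. *Skil*, a Smad corepressor, had 0.639 TP10k in Epi-like cells and 0.107 in ESC, and 0.357 in ExE-like cells and 0.141 in iTSC. *Fst*, which encodes the activin-binding protein follistatin, had 0.627 TP10k in ExE-like cells and 0.00331 in iTSC, and 0.268 in VE-like and 0.0213 in iXEN cells. Of the targets, *Gsc* was found in 0.318% of Epi-like cells and 40.8% of ESC.

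The genes whose pattern was most like that of 3 of the 10 were sought by Pearson's r of the mean ln(TP10k + 1) over 12 values, 9 of 3D compartments by plate and 3 of cultures, among 14183 genes. The values share compartments and plates, so r is a description. For *Tdgf1* the first 5 were *Pipox* (r = 0.998), *Mcf2*, *Stmn3*, *Lrrc34* and *Phc1*. For *Nodal* they were *Hsd17b14* (0.987), *Mcm3*, *Krt42*, *Pald1* and *Igfbp2*, and those of *Lefty1* included *Prune2* (0.992), *Pitpnc1*, *Mkrn1* and *Dppa3*. Within the 10 genes, *Gdf3* and *Lefty2* had the most alike patterns (r = 0.991), followed by *Gdf3* and *Tdgf1* (0.985).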

How the data were processed

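Single-cell SMART-seq2 libraries of 1 pool of RtL-embryoids and of 3 cultures were used. The authors demultiplexed reads with bcl2fastq 2.20, pseudoaligned them with kallisto to the GRCm38 transcriptome, summed them per gene and deposited TPM, which are corrected for transcript length and keep no read number. The authors' minimum of reads per cell could thus not be applied, and how reads shared by several transcripts were divided can affect *Lefty1*, *Lefty2* and *Tdgf1*.

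TPM of cells with at least 2500 genes were rescaled to 10000 per cell (TP10k), which left 314 Epi-like, 315 VE-like and 353 ExE-like cells, 142 ESC, 141 iXEN cells and 141 iTSC. Of the wells left out, 39 wells held no values and 32 summed to 0. No doublet caller was run on these wells of single sorted cells. All columns were matched to a sample. Wells were assigned to compartments by their column, which was checked on marker lists. For each cell and list, ln(TP10k + 1) was divided by the gene's mean in its own columns and averaged, a formula settled after values had been seen. A gene was called at 2-fold in the mean of all cells and on each plate, if found in at least 10% of cells of 1 group. With 1 sample per condition there was no test. Intervals are exact binomial (Clopper-Pearson). Positions and transcripts come from Gencode vM21 (GRCm38). Python 3.11.15, numpy 2.4.6, scipy 1.17.1 and pandas 2.3.3 were used.

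The 10 genes, the pathway list, the markers and the call rules were chosen with earlier results of these data known, and the promoter motifs after values had been seen. Named genes are the 10, the pathway list, and for *Nodal*, *Lefty1* and *Tdgf1* the 5 genes of most similar pattern, and results of some of these are not reported here. The alternatives were other minima of genes, TPM as deposited, means of log2(TPM + 1) and log2(TPM + 0.1), 4-fold, other filters, detection from 1 TPM, cells of another marker list left out, cells of 5000 to 9000 genes and each plate left out. Leaving out 2D cells of another list, such cells of 3D and 2D together, and the cell with the highest level of each gene and group was added after seeing the data.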

Additional observations from a re-analysis of the deposited data

Results flagged for a closer look

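*Nodal* went opposite ways in 2 lineages when 3D was set against 2D. It was higher in VE-like than in iXEN cells on plates 3, 4 and 5 (log2 ratio 1.42) and lower in ExE-like cells than in iTSC on the same plates (-2.14), a gap of 3.56 on the log2 scale. Each condition is 1 sample, and the difference was not tested. *Nodal* was found in 19.05% of VE-like and 16.3% of iXEN cells. The call of *Nodal* in VE-like cells was lost with a filter at 25% of cells, at 4-fold and with both log2 means. With the main settings, no other of the 10 genes was called in opposite directions in 2 lineages. *Lefty1* was so called without plate 4 and without 3D cells of another marker list, with or without such 2D cells left out. In these settings it was higher in VE-like than iXEN cells and lower in ExE-like cells than iTSC. With log2(TPM + 0.1), *Lefty1* was higher in Epi-like cells than ESC and lower in ExE-like cells than iTSC. *Lefty2* was then higher in VE-like than iXEN cells, but lower in Epi-like cells than ESC and in ExE-like cells than iTSC. With that mean 68.9% of all genes tested were called lower in Epi-like cells than ESC, and 39.5% in ExE-like cells than iTSC.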

How the results depend on the processing

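*Nodal*, *Gdf3*, *Tdgf1* and *Lefty1* were called for Epi-like cells under each of 17 alternatives, and *Lefty2* under all but the range of 5000 to 9000 genes. *Furin* was called for VE-like cells with log2(TPM + 0.1). No paired analysis was possible because no result comes from a test. Of the genes lower in Epi-like cells than ESC (0), 1 was called at a minimum of 4000 genes and among cells of 5000 to 9000 genes, 2 with no minimum and with log2(TPM + 1), and 6 with log2(TPM + 0.1). With log2(TPM + 1) 43.9% of all genes tested were called lower there, and with log2(TPM + 0.1) 68.9%. Leaving out a plate gave 0 to 1, the 1 without plate 5. Of the genes higher in Epi-like cells than ESC (1), 0 passed 4-fold. Of those higher in VE-like than iXEN cells (3), 1 was called with log2(TPM + 0.1) and 0 with a filter at 25% of cells. With *Lefty2* lost, 2 were called with no minimum and without plate 3. With *Nodal* lost, 2 were called with log2(TPM + 1) and at 4-fold. Of those lower (0), 1 was called with log2(TPM + 0.1), where 48.5% of all genes were. Of those lower in ExE-like cells than iTSC (4), 2 were called with no minimum, 8 with log2(TPM + 0.1), where 39.5% of all genes were, and 1 at 4-fold. With *Lefty1* added, 5 were called without plate 4 and without 3D cells of another list. With log2(TPM + 1), 5 were called with *Acvr2b* added. A filter at 25% of cells, the range of 5000 to 9000 genes, and leaving out 2D cells of another list alone each gave 3.

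Over all alternatives, log2 ratios past 2-fold changed sign in 10 of 559 values, and shares of cells left the interval of the main value in 84 of 510. The ratio of *Tdgf1* in VE-like over iXEN cells (2.67) became -1.15 with log2(TPM + 1), -1.88 with log2(TPM + 0.1) and -2.73 without 3D cells of another list (-2.74 without such cells of 2D too), among which were 2 of the 3 VE-like cells with *Tdgf1*. *Tdgf1* in ExE-like cells over iTSC (-3.44) became 1.20 when 11 iTSC of the Epi list alone were left out and -2.15 when cells of another list were left out on both sides. *Cer1* in Epi-like cells over ESC (1.08) became -0.637, -1.40 and -0.0108 under the first 3 of these settings, was -0.0108 too with both sides left out, and ranged from -0.998 (without plate 3) to 1.67 (without plate 5) when a plate was left out. Leaving out the 1 highest cell moved the mean of *Tdgf1* from 0.0324 to 0.0141 TP10k in VE-like cells, from 0.0239 to 0.00824 in ExE-like cells and from 0.259 to 0.135 in iTSC, and that of *Lefty2* from 0.00232 to 0.00107 in iXEN cells, and the numbers of genes called stayed as in all cells. The cause of the other changes was not tested. TPM give no depth, so genes near 0 such as *Cer1* could not be ordered.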
